A study of Mus musculus with 20 samples.

Results

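Late 8-cell mouse embryos that had received P300 siRNA together with NaCr were compared with control embryos of the same stage, to describe which transcripts were still different from the control after the treatment. The rule took every library carrying either label, which gave 2 NaCr and 2 control libraries, 4 of the 20 in the series. The series profiled preimplantation embryos by RNA sequencing in 10 groups of 2 libraries, with control and P300 siRNA embryos at 4 stages. The other groups were late 8-cell embryos given P300 siRNA with either of 2 rescues, titled NaCr and I1394G. Levels in the P300 siRNA I1394G embryos are given for a few genes only. The groups compared here are the P300 siRNA NaCr embryos, labelled as a P300 knockdown with NaCr rescue, the P300 siRNA embryos, labelled as a P300 knockdown, and the control embryos, labelled WT. All were cultured from the zygote in KSOM, a simple embryo medium, and libraries were made with Smart-seq2, a full-length cDNA method for very small inputs. The labels give no strain, dose or time of NaCr, number of embryos per library or siRNA given to the controls. NaCr is not spelled out by the labels and is taken here to be sodium crotonate, a salt that cells can turn into crotonyl-CoA.

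The protein p300, encoded by Ep300, is a lysine acyltransferase that acts as a transcriptional coactivator at enhancers and promoters. It can place acetyl groups on histones and, when crotonyl-CoA is at hand, crotonyl groups, a mark of active chromatin. In the late 8-cell mouse embryo the cells compact and polarise, and the programmes of the trophectoderm, which forms the placenta, and of the inner cell mass, which forms the embryo proper, start to part. Embryos of this stage lean on pyruvate and lactate as fuels and turn to glucose and glycolysis as the blastocyst forms.

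Total counts were 17508228 and 9291934 in the NaCr libraries, 3202332 and 20252948 in the siRNA libraries and 22715816 and 21227645 in the control libraries. All levels below are CPM, counts scaled to library size times a TMM factor for library composition, and are given for replicate 1 and then replicate 2. The factors were 0.865 and 0.866 in the NaCr libraries, 1.18 and 1.21 in the siRNA libraries and 0.858 and 0.854 in the control libraries. A value with ± is a log2 fold change with its SE, and each adjusted p comes from a two-sided edgeR quasi-likelihood test fitted and adjusted over every gene tested. Nothing in the labels says that the 2 libraries of a group came from separate experiments. The p values rest on the spread within groups over all 20 libraries of the fit, and that spread may be technical. Each library holds whole embryos, so fewer cells of a kind and less RNA per cell cannot be told apart. Genes with near-identical copies and genes that overlap another on either strand may share reads, because counting was not stated to use strand.

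Ep300, the target of the siRNA, read 11.6 and 12.6 CPM in NaCr embryos, 16.2 and 13.2 CPM in siRNA embryos and 22.03 and 15.2 CPM in control embryos. Both NaCr libraries were below both control libraries, as for 31.7% of all genes, and the change of -0.63 ± 0.37 did not pass (adjusted p = 0.490). At this stage the target transcript therefore does not check the labels, and directions rest on the labels themselves.

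Few genes passed between NaCr and control embryos in the fit of all 20 libraries, and more of them were higher than lower. The count of passes does not measure how much of the transcriptome differed, because it depended on which libraries entered the fit. Of 16603 genes tested, 261 passed at an adjusted p under 0.05, which is 1.57%. Of these 178 were higher (1.07%) and 83 were lower (0.5%) in NaCr embryos. The median change was 2.14 among the genes that rose and -1.44 among those that fell, against -0.05 over all genes tested. A change of at least 1 on the log2 scale was reached by 165 of the higher and 72 of the lower genes, and a change of at least 2 by 98 and 16. At an unadjusted p under 0.05 there were 2234 genes. For all 261 genes both NaCr libraries lay on the same side of both control libraries, a pattern that 23.8% of all genes showed upwards and 31.7% downwards.

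With no overlap in any of the 261 genes, leaving out 1 library could hardly turn a direction. The number of calls rested on all 4 libraries. It was 113 without NaCr replicate 1, 66 without NaCr replicate 2, 12 without control replicate 1 and 33 without control replicate 2. All 261 genes kept their direction in each of these fits, and 9 passed in all 4. The 9 were Apoe, Fez1, Gng3, Gpx3, Hmox1, Hspb1, Igsf3, Trpc5os and Wars2, so every other call below was lost without at least 1 library. Of these, Apoe encodes a lipid carrier and read 83.3 and 93.3 CPM in NaCr embryos and 17.0 and 13.8 CPM in control embryos (2.52 ± 0.35, adjusted p = 0.00142). Wars2, the mitochondrial tryptophanyl-tRNA synthetase, read 45.6 and 41.3 CPM in NaCr embryos against 141 and 153 CPM in control embryos (-1.76 ± 0.24, adjusted p = 0.00142). When only the 8 late 8-cell libraries entered the fit there were 742 higher and 359 lower calls, and with only the 4 compared there were 1431 and 1080.

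**Figure D1:**
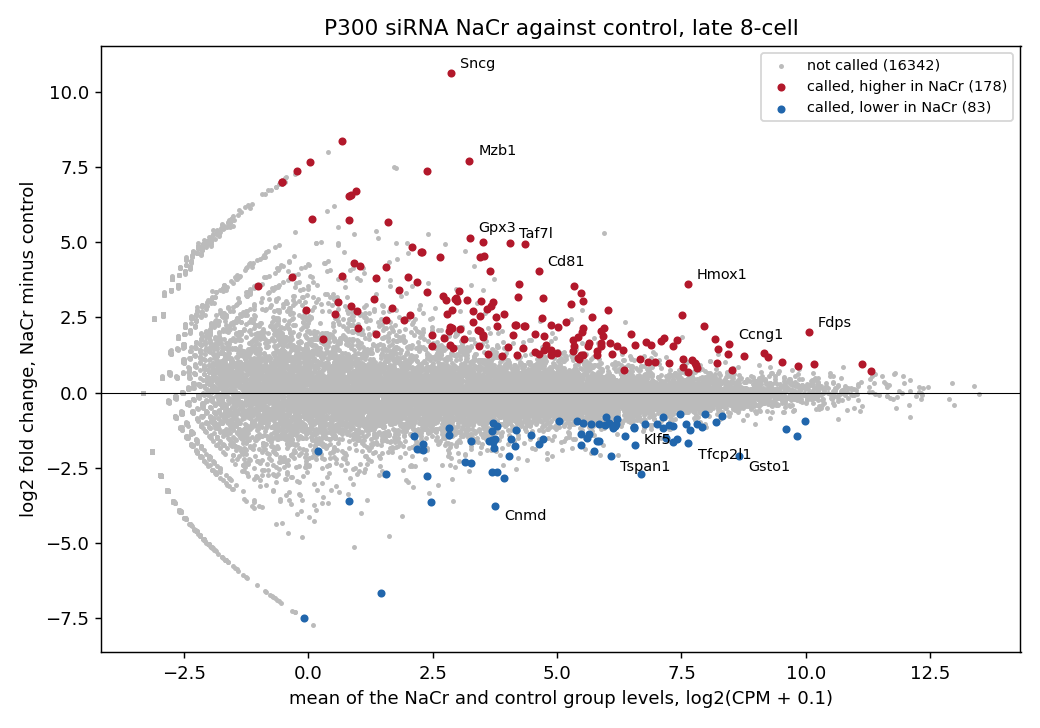
Log2 fold change of NaCr over control embryos for each of the 16603 genes tested (vertical axis) against the mean of the 2 groups' levels on a log2 scale (horizontal axis). Red points are the 178 genes called higher in NaCr embryos and blue points the 83 called lower, and the genes called higher reach larger changes than those called lower.

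For scale, the same test called 15.3% of genes between NaCr and siRNA embryos and 28% between siRNA and control embryos at this stage. These comparisons share libraries with the one described here, so their values are only set side by side. The genes that rose ranged from transcripts close to silent in the controls to abundant ones. The control mean was under 1 CPM for 43 of the 178 and at least 10 CPM for 76. Of the 83 genes that fell, 52 kept at least 10 CPM in the NaCr mean. The 261 include 14 gene models without a name.

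The largest rises by the naming rule were in genes nearly absent from control embryos. Sncg, which encodes gamma-synuclein, read 18.4 and 10.4 CPM in NaCr embryos, 28.1 and 54.7 CPM in siRNA embryos and no count in either control library. Taking 3 counts over the control group as the floor, it was at least 196-fold higher in NaCr embryos (adjusted p = 0.00142). Mzb1, a chaperone of the endoplasmic reticulum known from B cells, read 22.6 and 14.4 CPM in NaCr embryos and 0.0513 and 0.110 CPM in control embryos. Its ratio of pooled CPM was 248, with a 95% exact counting interval of 84.4 to 1208. Mt3, a metallothionein known from brain, read 10.8 and 9.70 CPM in NaCr embryos against 0 and 0.110 CPM in control embryos, a ratio of 195 with an interval of 53.5 to 1623. These intervals and the floor cover counting error only.

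Among rises with more reads behind the control level, Gpx3, a secreted glutathione peroxidase, read 23.1 and 13.3 CPM in NaCr embryos and 0.411 and 0.607 CPM in control embryos (5.15 ± 0.60, adjusted p = 0.000394). Taf7l, a germ cell paralogue of the general transcription factor subunit Taf7, read 37.8 and 26.6 CPM in NaCr embryos against 1.54 and 0.496 CPM in control embryos (4.96 ± 0.83, adjusted p = 0.00483). Igfbp6, an insulin-like growth factor binding protein, read 21.98 and 21.9 CPM in NaCr embryos against 0.616 and 1.27 CPM in control embryos. Cd81, a tetraspanin of the cell surface, read 40.3 and 52.6 CPM in NaCr embryos, 96.4 and 196 CPM in siRNA embryos and 2.46 and 3.199 CPM in control embryos. For each of these the NaCr libraries stood well above the controls, and the naming rule required that they not overlap. Cd81 was also lower in NaCr than in siRNA embryos (-1.66 ± 0.47, adjusted p = 0.0223), so its NaCr level differed from the siRNA and control levels.

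Klhl13, an adaptor of a ubiquitin ligase, and Lgals1, the lectin galectin-1, also rose, with NaCr libraries that lay far apart from each other. Klhl13 read 11.1 and 35.7 CPM in NaCr embryos and 0.975 and 1.82 CPM in control embryos, and its change of 4.05 became 2.99 without NaCr replicate 2 and 4.67 without NaCr replicate 1. Lgals1 read 51.4 and 17.8 CPM in NaCr embryos against 1.69 and 4.03 CPM in control embryos, and its change of 3.60 became 2.64 without NaCr replicate 1, 3.11 without control replicate 1 and 4.35 without control replicate 2. Ripk3, a kinase of the necroptosis pathway, read 12.7 and 16.7 CPM in NaCr embryos and 1.28 and 1.54 CPM in control embryos (3.36 ± 0.68, adjusted p = 0.0159). Rises over low control levels depended on the control libraries. Without either 1 of them the change of Mt3 was 6.42 (replicate 1 left out) or 10.08 (replicate 2 left out), that of Taf7l 5.99 or 4.38 and that of Igfbp6 4.102 or 5.13.

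The 12 largest falls among named genes with at least 10 CPM in control embryos kept some reads in NaCr embryos. Cnmd, which encodes the cartilage glycoprotein chondromodulin, read 2.51 and 0.995 CPM in NaCr embryos, 0.531 and 2.57 CPM in siRNA embryos and 28.5 and 21.7 CPM in control embryos (-3.77 ± 0.79, adjusted p = 0.0193, and -4.64 without NaCr replicate 1). Trpc5os, an opposite-strand transcript of the Trpc5 locus, read 0.924 and 0.622 CPM in NaCr embryos, 1.06 and 3.68 CPM in siRNA embryos and 10.6 and 9.54 CPM in control embryos (-3.65 ± 0.54, adjusted p = 0.00179). Its NaCr level was also below its siRNA level by the test (-1.74 ± 0.54, adjusted p = 0.0370). However, siRNA replicate 1 stood close to the NaCr libraries, and 1 count was worth 0.265 CPM in it. Smpdl3a, an acid sphingomyelinase-like enzyme, read 37.6 and 16.7 CPM in NaCr embryos and 165 and 192 CPM in control embryos (-2.71 ± 0.57, and -3.42 without NaCr replicate 1).

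Vangl1, a core protein of planar cell polarity, read 3.37 and 4.23 CPM in NaCr embryos and 23.1 and 24.5 CPM in control embryos (-2.65 ± 0.44, adjusted p = 0.00483). The tetraspanin Tspan1 read 26.9 and 23.6 CPM in NaCr embryos against 121 and 99.1 CPM in control embryos, and Tspan8 read 3.30 and 2.98 CPM in NaCr embryos against 14.4 and 17.7 CPM in control embryos. Dynap, a membrane protein, read 3.50 and 3.86 CPM in NaCr embryos against 27.3 and 25.8 CPM in control embryos. All 4 genes had NaCr libraries close to each other and well below the controls.

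Gsto1, an omega-class glutathione transferase, read 179.6 and 123 CPM in NaCr embryos, 88.7 and 87.2 CPM in siRNA embryos and 579 and 733 CPM in control embryos (-2.12 ± 0.42, adjusted p = 0.0156). Atic, which catalyses the last steps of purine synthesis, read 26.5 and 17.3 CPM in NaCr embryos against 95.03 and 74.8 CPM in control embryos (-1.95 ± 0.31, adjusted p = 0.00302). Ppp1r3b, which targets a phosphatase to glycogen, read 8.05 and 4.104 CPM in NaCr embryos against 24.4 and 28.9 CPM in control embryos (-2.11 ± 0.50). Cct6b, a testis-enriched chaperonin subunit, and Tex14, a protein of germ cell bridges, fell by 2.64 and 2.30.

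**Figure D2:**
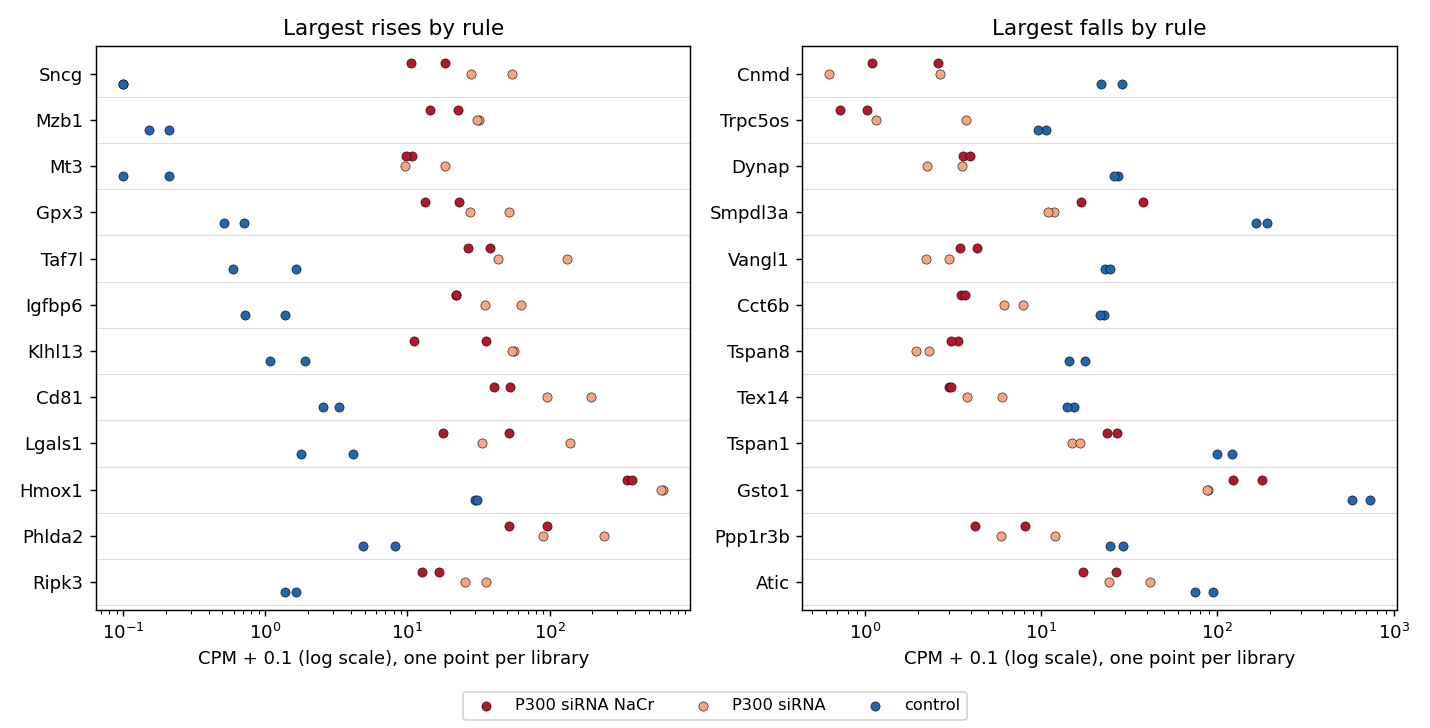
Levels of the 12 largest rises (left) and the 12 largest falls (right) chosen by the naming rule, in CPM plus a small constant on a log axis, with 1 point per library for the NaCr, siRNA and control groups. In every row the 2 NaCr points lie on one side of the 2 control points, as the rule required. The siRNA points lie on that same side, which the rule did not require.

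Enzymes at several steps of glycolysis were higher in NaCr embryos. Of 25 tested genes of glycolysis and lactate handling, 6 rose, 1 fell and 18 did not pass, with a median of 0.72 against -0.05 over all genes. Counts here and in the lists below stand beside 1.07% of all genes called higher and 0.5% called lower. Eno1 (enolase) read 213 and 229 CPM in NaCr embryos, 310.1 and 337 CPM in siRNA embryos and 59.5 and 65.9 CPM in control embryos (1.82 ± 0.25, adjusted p = 0.00142). Ldha, the lactate dehydrogenase subunit that favours lactate formation, read 219 and 196 CPM in NaCr embryos, 378 and 503 CPM in siRNA embryos and 67.1 and 59.6 CPM in control embryos (1.71 ± 0.29, adjusted p = 0.00542). Its NaCr level was below the siRNA level (-1.09 ± 0.29, adjusted p = 0.0155), so both NaCr libraries stood between the siRNA and control libraries.

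Ldhb, the other main lactate dehydrogenase subunit, read 20.8 and 14.1 CPM in NaCr embryos, 67.4 and 95.0002 CPM in siRNA embryos and 2.88 and 5.63 CPM in control embryos (2.05 ± 0.38, adjusted p = 0.00982). Pkm (pyruvate kinase) read 168 and 188 CPM in NaCr embryos against 49.5 and 70.05 CPM in control embryos (1.57 ± 0.24). Tpi1 (triosephosphate isomerase) and Pgk1 (phosphoglycerate kinase) both rose by 1.64, with adjusted p values of 0.0161 and 0.0275. Slc16a1, a carrier of lactate and pyruvate across the membrane, went the other way, with 53.6 and 31.3 CPM in NaCr embryos, 102 and 75.2 CPM in siRNA embryos and 103 and 89.7 CPM in control embryos (-1.17 ± 0.27, adjusted p = 0.0332). Hexokinase Hk2 read 14.2 and 5.35 CPM in NaCr embryos against 49.3 and 41.7 CPM in control embryos, a difference that did not pass (adjusted p = 0.216), and the glucose carrier Slc2a1 overlapped between the groups.

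The count of glycolysis genes that rose was 3 without NaCr replicate 1, 4 without NaCr replicate 2, 0 without control replicate 1 and 3 without control replicate 2, while the median stayed between 0.66 and 1.14. Eno1 shares long stretches with the retrogene Eno1b, which also rose (69.0 and 75.0 CPM in NaCr embryos, 17.7 and 18.1 CPM in control embryos), and how reads were divided between them is uncertain.

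Because 6 glycolysis genes moved together, their promoters were searched for ACGTG, the core of the hypoxia response element, on either strand in the 250 bases before each RefSeq start. A gene was counted when at least 1 of its listed starts had a match. The sequence was found before 3 of the 6, namely Ldha, Pgk1 and Pkm, and before 11 of the 24 tested glycolysis genes with an entry. Ldha and Pkm each had 2 listed starts, and 1 of the 2 had no match. Over all 13036 tested genes with an entry, 3054 held it, which is 23.4%. Ldha and Pgk1 are shown because they held the most matches, 5 and 2. Capitals mark the matches, and CACGTG counts once on each strand. The sequences are RefSeq's on GRCm38.p6, both on the plus strand, at chr7:46845554-46845803 for Ldha and chrX:106186850-106187099 for Pgk1.
Ldha: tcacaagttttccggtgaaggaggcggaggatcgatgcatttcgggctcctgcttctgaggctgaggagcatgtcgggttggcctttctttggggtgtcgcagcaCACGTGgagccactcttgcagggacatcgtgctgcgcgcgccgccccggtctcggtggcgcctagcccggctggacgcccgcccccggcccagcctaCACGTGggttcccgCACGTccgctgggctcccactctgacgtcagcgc
Pgk1: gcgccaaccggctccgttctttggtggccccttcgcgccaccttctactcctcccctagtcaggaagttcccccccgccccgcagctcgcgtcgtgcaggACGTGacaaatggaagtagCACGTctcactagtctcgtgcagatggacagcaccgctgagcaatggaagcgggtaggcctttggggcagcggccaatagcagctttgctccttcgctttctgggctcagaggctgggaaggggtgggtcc
In Ldha the matches lie between 145 and 34 bases before the start and in Pgk1 between 150 and 131 bases. A match describes the letters in the window and does not show that a factor binds there.

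Targets of the tumour suppressor p53 also included genes that rose. Of 30 tested targets and apoptosis genes, 6 rose, none fell and 24 did not pass (20% called against 1.57% of all genes), with a median of 0.61. Btg2, an antiproliferative gene, read 99.2 and 91.04 CPM in NaCr embryos, 214 and 265 CPM in siRNA embryos and 22.9 and 28.7 CPM in control embryos (1.88 ± 0.33, adjusted p = 0.00701). Pmaip1, the pro-apoptotic Noxa, read 246 and 280.1 CPM in NaCr embryos and 67.1 and 90.95 CPM in control embryos (1.73 ± 0.32, adjusted p = 0.00956). Trp53inp1, a p53 cofactor in stress, read 249 and 229.6 CPM in NaCr embryos, 681 and 406 CPM in siRNA embryos and 73.2 and 92.1 CPM in control embryos (1.53 ± 0.30, adjusted p = 0.0143). Btg2 and Trp53inp1 were lower in NaCr than in siRNA embryos as well (-1.33 and -1.18, adjusted p = 0.0103 and 0.0126).

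Ei24, a p53-induced protein of the endoplasmic reticulum, read 317 and 587 CPM in NaCr embryos, with libraries far apart, against 133 and 127 CPM in control embryos (1.80 ± 0.33, adjusted p = 0.00982). Ccng1 (cyclin G1) rose by 1.61. The death receptor Fas rose by 4.66 ± 0.95, with 6.87 and 11.4 CPM in NaCr embryos and few counts in control embryos (0.103 and 0.607 CPM), and the change was 3.89 without control replicate 1 and 6.35 without control replicate 2. The cell cycle inhibitor Cdkn1a read 424 and 465 CPM in NaCr embryos and 232 and 203 CPM in control embryos, and Mdm2, the ligase that degrades p53, read 177 and 146 CPM in NaCr embryos against 72.4 and 94.2 CPM in control embryos. Neither passed (adjusted p = 0.148 and 0.203). Both NaCr libraries lay above both controls, as for 23.8% of all genes. Counts of risen targets were 3 without NaCr replicate 1, 1 without NaCr replicate 2 and 0 without either control library, with medians between 0.52 and 0.68.

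Genes of the oxidative stress response rose in part. Of 27 tested, 4 rose and none fell (14.8% called against 1.57% of all genes), with a median of 0.41. Hmox1 (haem oxygenase 1) read 349 and 382 CPM in NaCr embryos, 633 and 610.03 CPM in siRNA embryos and 29.9 and 30.6 CPM in control embryos (3.60 ± 0.39, adjusted p = 0.000217). Nqo1, a quinone reductase, read 48.2 and 39.5 CPM in NaCr embryos and 6.98 and 8.77 CPM in control embryos (2.48 ± 0.57, adjusted p = 0.0338). Gstm1, a mu-class glutathione transferase, read 21.2 and 12.9 CPM in NaCr embryos, 107 and 72.5 CPM in siRNA embryos and 3.34 and 1.88 CPM in control embryos. Prdx1, an abundant peroxiredoxin, read 1609 and 1427 CPM in NaCr embryos and 806 and 756 CPM in control embryos (0.96 ± 0.16, adjusted p = 0.00483).

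Both Gstm1 and Prdx1 were lower in NaCr than in siRNA embryos (-2.38 and -0.63, adjusted p = 0.00268 and 0.0125), while Hmox1 was not shown to differ from the siRNA level (-0.77 ± 0.35, adjusted p = 0.149). The metallothioneins Mt1 and Mt2, which bind zinc and copper, did not pass. Mt1 read 611 and 451 CPM in NaCr embryos and 531 and 564 CPM in control embryos, and Mt2 read 344 and 383 CPM in NaCr embryos and 308 and 343 CPM in control embryos. Of the 23 heat shock genes and chaperonins, Hspb1, a small heat shock protein, rose with 333 and 293 CPM in NaCr embryos against 43.9 and 60.3 CPM in control embryos (2.59 ± 0.27, adjusted p = 0.000217). Hsph1, a co-chaperone of Hsp70, fell with 87.1 and 84.2 CPM in NaCr embryos against 180.2 and 211 CPM in control embryos (-1.19 ± 0.25). The oxidative stress count was 3 without NaCr replicate 2 and 1 without any other library, and none of the 23 genes of the unfolded protein response passed (median 0.04).

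**Figure D3:**
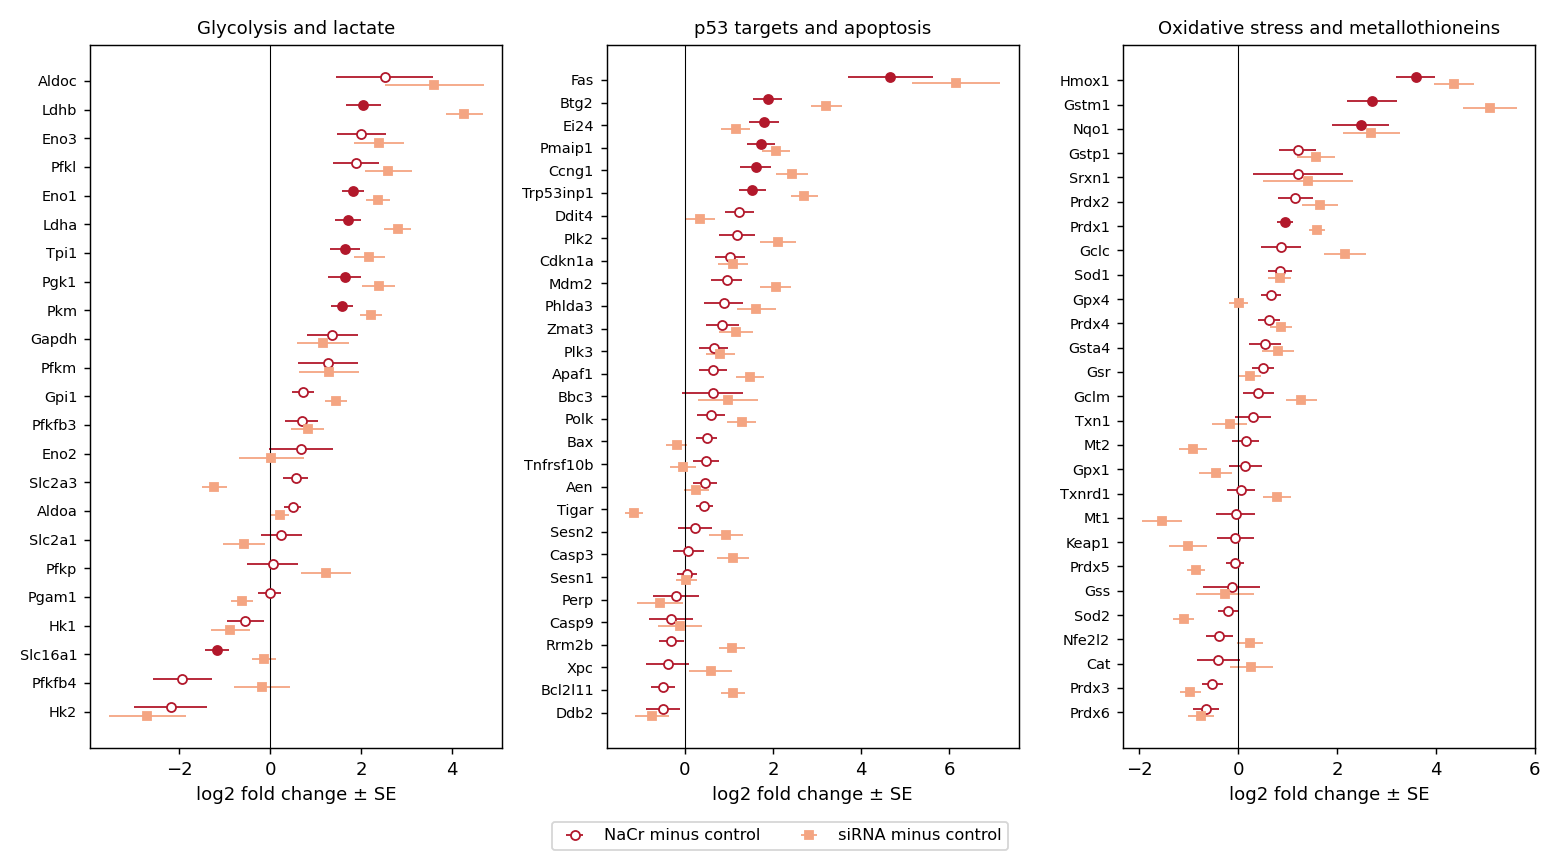
Log2 fold changes with SE bars of NaCr minus control (circles, filled where called) and of siRNA minus control (squares) for members with at least 1 CPM in the NaCr or control mean, in glycolysis and lactate (left), p53 targets and apoptosis (middle) and oxidative stress and metallothioneins (right). Both sets of values use the same control libraries. Filled circles lie at positive changes in all 3 panels except for Slc16a1.

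Fdps and Fdft1, enzymes of sterol synthesis, were higher in NaCr embryos than in siRNA and control embryos. I1394G embryos, the other rescue, read 1286 and 1533 CPM for Fdps and 1025 and 886 CPM for Fdft1 and were not tested against NaCr embryos. Of 31 tested genes of cholesterol and fatty acid synthesis, 4 rose and none fell, with a median of 0.32 over control embryos and of -0.04 over siRNA embryos. Fdps, the farnesyl diphosphate synthase of the mevalonate pathway, read 1478 and 1941 CPM in NaCr embryos, 447 and 787 CPM in siRNA embryos and 415 and 441 CPM in control embryos. The rise over control embryos was 1.999 ± 0.33 (adjusted p = 0.00429) and that over siRNA embryos was 1.47 ± 0.32 (adjusted p = 0.00508). Fdft1, the squalene synthase, read 871 and 1082 CPM in NaCr embryos, 473 and 396 CPM in siRNA embryos and 513 and 462 CPM in control embryos (1.002 ± 0.21, adjusted p = 0.0206 over control, and 1.17 ± 0.22, adjusted p = 0.00157 over siRNA).

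Sqle, the squalene epoxidase, read 193 and 213 CPM in NaCr embryos, 204 and 169.9 CPM in siRNA embryos and 98.8 and 107 CPM in control embryos (0.98 ± 0.24, adjusted p = 0.0440). Fads2, a fatty acid desaturase, read 7.72 and 8.83 CPM in NaCr embryos and 0.565 and 0.717 CPM in control embryos (3.67 ± 0.86, adjusted p = 0.0372). Insig1, a regulator of sterol synthesis, read 120.3 and 99.99 CPM in NaCr embryos and 46.6 and 58.4 CPM in control embryos and did not pass (adjusted p = 0.0684). Counts were 2 without NaCr replicate 1, 1 without NaCr replicate 2 and 0 without either control library.

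Imprinted genes, which are expressed from 1 parental allele, were higher in NaCr embryos where they passed. Of 32 tested, 5 rose and none fell (15.6% called against 1.57% of all genes), with a median of 0.77. Besides Cd81, Phlda2, which restrains placental growth, read 96.6 and 51.5 CPM in NaCr embryos, 89.5 and 242 CPM in siRNA embryos and 8.06 and 4.74 CPM in control embryos (3.53 ± 0.59, adjusted p = 0.00483). Cdkn1c, a cell cycle inhibitor, read 14.5 and 9.45 CPM in NaCr embryos, 25.5 and 72.2 CPM in siRNA embryos and 2.05 and 0.772 CPM in control embryos (3.07 ± 0.58, adjusted p = 0.0114, and 3.94 without control replicate 1). Impact, an inhibitor of the kinase Gcn2, read 298 and 269 CPM in NaCr embryos against 134 and 132 CPM in control embryos, and the noncoding Meg3 read 7.86 and 5.85 CPM in NaCr embryos against 1.13 and 1.16 CPM in control embryos. Cd81, Phlda2 and Cdkn1c lie in one imprinted domain on chromosome 7. The count was 2 and 3 without NaCr replicate 1 and 2, and 0 and 1 without control replicate 1 and 2.

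Germline genes rose in 4 of 41 tested cases and fell in 1 (12.2% called against 1.57% of all genes, median 0.39). Besides Taf7l, these were Hormad1, a protein of the meiotic chromosome axis, with 39.5 and 42.7 CPM in NaCr embryos, 108 and 100.1 CPM in siRNA embryos and 11.96 and 15.4 CPM in control embryos (1.58 ± 0.30, adjusted p = 0.0102), the homeobox gene Rhox2a and the meiotic gene Tex11. Tex14 was the fall. Rhox2a read 10.6 and 12.7 CPM in NaCr embryos against 0.924 and 1.5996 CPM in control embryos and belongs to a cluster of near-identical copies, so its reads are uncertain. Counts of risen germline genes were 3 and 2 without NaCr replicate 1 and 2 and 0 without either control library.

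Genes of the inner cell mass and pluripotency were divided. Of 31 tested genes, 1 rose, 3 fell and 27 did not pass (12.9% called against 1.57% of all genes), with a median of -0.36. Both NaCr libraries lay above both controls for 9 genes and below for 14, against 23.8% and 31.7% of all genes. The 9 included Dppa2, Dppa3, Dppa4 and Dppa5a, with changes of 0.63, 0.31, 0.46 and 0.31. None of these passed (adjusted p = 0.118, 0.405, 0.292 and 0.697). Tfcp2l1, a factor of the naive pluripotency network, read 110.4 and 80.1 CPM in NaCr embryos, 37.2 and 25.3 CPM in siRNA embryos and 316 and 292 CPM in control embryos (-1.67 ± 0.39, adjusted p = 0.0372). Klf5, a Krüppel-like factor active in both first lineages, read 52.2 and 63.8 CPM in NaCr embryos, 23.6 and 23.7 CPM in siRNA embryos and 135 and 124 CPM in control embryos (-1.16 ± 0.23, adjusted p = 0.0141). Both lay between the siRNA and control levels, and both were above the siRNA level by the test (1.63 ± 0.40 and 1.29 ± 0.23, adjusted p = 0.0107 and 0.00141).

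Etv5, a transcription factor downstream of FGF signalling, read 5.68 and 5.72 CPM in NaCr embryos, 4.25 and 9.80 CPM in siRNA embryos and 22.5 and 18.9 CPM in control embryos (-1.86 ± 0.39, adjusted p = 0.0198). Klf17, a factor of the oocyte and early embryo, rose with 96.1 and 187 CPM in NaCr embryos, 218 and 122 CPM in siRNA embryos and 47.8 and 26.2 CPM in control embryos (1.93 ± 0.47, adjusted p = 0.0439). The falls were lost without any 1 of the 4 libraries, and the rise without any but NaCr replicate 1.

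The central pluripotency genes did not pass. Nanog read 770.0 and 822 CPM in NaCr embryos, 67.7 and 86.0 CPM in siRNA embryos and 747 and 699 CPM in control embryos. Its difference from the control was 0.14 ± 0.48 (adjusted p = 0.965), and it was above the siRNA level by 3.37 ± 0.53 (adjusted p = 0.000539). Pou5f1, which encodes Oct4, read 189 and 189 CPM in NaCr embryos, 26.8 and 51.2 CPM in siRNA embryos and 265 and 287 CPM in control embryos (-0.55 ± 0.42, adjusted p = 0.639). A gene that did not pass is not shown to be unchanged, here or in the lists below.

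Trophectoderm genes showed 1 rise and 1 fall among 27 tested, with a median of -0.41. Aqp11, an aquaporin of intracellular membranes, rose with 28.2 and 46.3 CPM in NaCr embryos, 40.1 and 32.4 CPM in siRNA embryos and 10.6 and 8.49 CPM in control embryos (1.96 ± 0.30, adjusted p = 0.00271). Tspan8 was the fall. The rise was lost when either control library was left out, and the fall when any 1 of the 4 libraries was. The defining factor Cdx2 read 5.28 and 3.36 CPM in NaCr embryos, 0 and 0.204 CPM in siRNA embryos and 15.7 and 13.9 CPM in control embryos. Both NaCr libraries were below both controls, as for 31.7% of all genes, and the change of -1.77 ± 0.94 did not pass (adjusted p = 0.439). The difference from siRNA embryos did pass (4.68 ± 1.25, adjusted p = 0.0178).

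Gata3, another factor of this lineage, read 24.5 and 16.2 CPM in NaCr embryos, 8.23 and 7.60 CPM in siRNA embryos and 81.3 and 83.1 CPM in control embryos (-2.01 ± 0.66, adjusted p = 0.151). The aminopeptidase Enpep had the same order of groups, with 26.6 and 13.3 CPM in NaCr embryos, 2.65 and 2.45 CPM in siRNA embryos and 62.1 and 85.6 CPM in control embryos (-1.88 ± 0.58 against control, adjusted p = 0.117). Not all of the list went down. Of the 27 genes, 7 had both NaCr libraries above both controls and 15 below, against 23.8% and 31.7% of all genes. The 7 included Hand1 (0.67 ± 0.32, adjusted p = 0.367) and Gata2 (3.35 ± 1.16, adjusted p = 0.178). Gata2 had 3 counts over the control libraries. Tead4, the Hippo-responsive factor upstream of Cdx2, read 94.3 and 106 CPM in NaCr embryos against 122 and 96.7 CPM in control embryos and overlapped, and Aqp3 and Tfap2c did not pass. Apoe, Wars2, Eno1b, Gata6, Usp17lb and the genes named above that did not pass, other than Ep300 and Tead4, were chosen after their values had been seen, as were members beyond the first 4 called in a list.

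In the primitive endoderm list, 1 of 17 genes rose and none fell (median -0.47). Sparc, a matrix-binding glycoprotein, read 76.5 and 84.6 CPM in NaCr embryos, 112 and 132 CPM in siRNA embryos and 7.60 and 8.60 CPM in control embryos (3.31 ± 0.56, adjusted p = 0.00483). The lineage factor Gata6 read 111 and 90.4 CPM in NaCr embryos against 143 and 111 CPM in control embryos and did not pass.

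**Figure D4:**
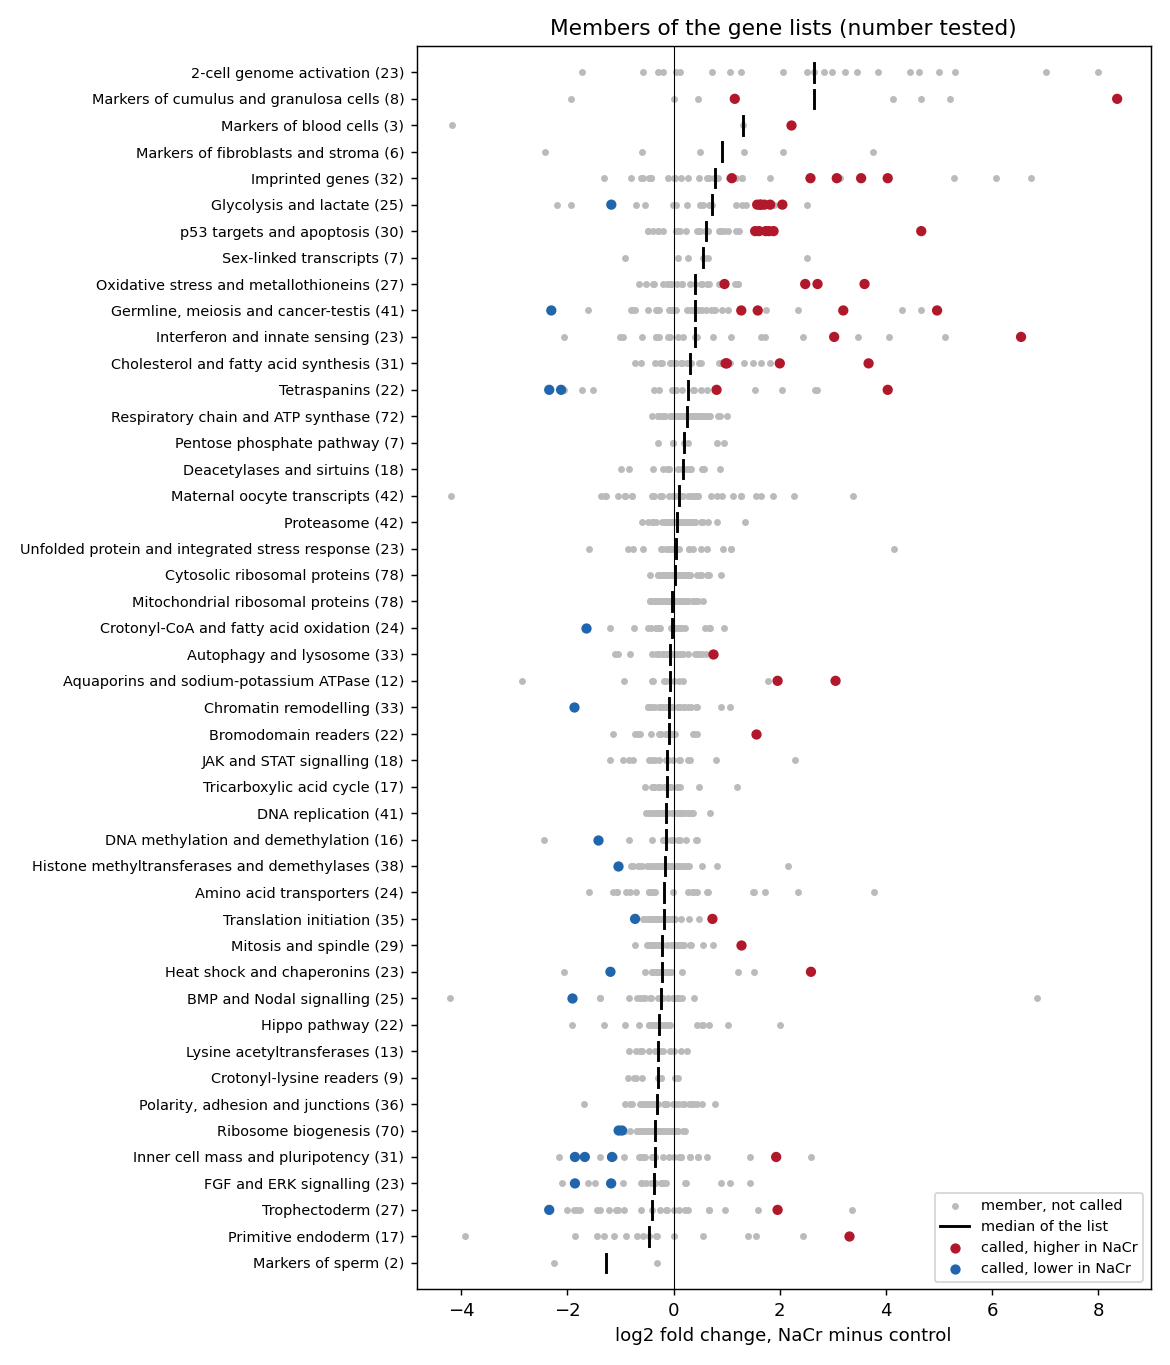
Log2 fold change of NaCr minus control for every tested member of the 46 gene lists, 1 row per list with the number tested in brackets, ordered by the list median (black bar). Red and blue points are members called higher and lower in NaCr embryos, and the rows of glycolysis, p53 targets, imprinted genes, oxidative stress and cholesterol synthesis hold 4 to 6 red points each.

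Signalling and chromatin genes gave scattered calls, most of them lower. In the FGF and ERK list of 23, Etv5 and the feedback inhibitor Spry4 fell and none rose (median -0.37), and neither passed when any 1 of the 4 libraries was left out. Smad3, which carries Nodal and activin signals, read 2.57 and 1.37 CPM in NaCr embryos and 8.83 and 6.62 CPM in control embryos (-1.91 ± 0.38, adjusted p = 0.0155). It was the fall among 25 BMP and Nodal genes, in which none rose. Tet2, which oxidises methylated cytosine, read 49.7 and 38.9 CPM in NaCr embryos, 13.5 and 12.9 CPM in siRNA embryos and 126 and 113 CPM in control embryos (-1.43 ± 0.25, adjusted p = 0.00656).

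Tet2 was also above its siRNA level (1.75 ± 0.26, adjusted p = 0.000424), so its NaCr libraries lay between the siRNA and control libraries. Ezh2, the methyltransferase of Polycomb complex PRC2, read 95.1 and 72.6 CPM in NaCr embryos, 102 and 75.7 CPM in siRNA embryos and 192 and 158 CPM in control embryos (-1.06 ± 0.22, adjusted p = 0.0191). The remodelling ATPase Smarca2 read 2.18 and 1.49 CPM in NaCr embryos, 8.23 and 5.72 CPM in siRNA embryos and 7.29 and 6.73 CPM in control embryos. It was lower than in control and siRNA embryos (-1.89 ± 0.37 against control and -1.81 ± 0.39 against siRNA, adjusted p = 0.0143 and 0.00428). In I1394G embryos, not tested against NaCr embryos, it read 2.25 and 3.92 CPM. Brdt, a bromodomain protein of the testis, rose by 1.54 ± 0.31 with 14.2 and 17.8 CPM in NaCr embryos against 6.21 and 4.69 CPM in control embryos.

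Enzymes and readers closest to histone crotonylation did not pass. None of 13 lysine acetyltransferases, 18 deacetylases and sirtuins or 9 readers of crotonyl-lysine was called, with medians of -0.29, 0.17 and -0.29. Their most abundant members were Hat1, Hdac1 and Dpf2, with changes of 0.24 ± 0.20, 0.30 ± 0.16 and -0.24 ± 0.23. Among 24 genes of crotonyl-CoA and fatty acid oxidation, 1 fell. This was Acadl, the long-chain acyl-CoA dehydrogenase, with 85.9 and 68.2 CPM in NaCr embryos, 85.2 and 71.4 CPM in siRNA embryos and 224 and 263 CPM in control embryos (-1.66 ± 0.31, adjusted p = 0.00982). Its NaCr and siRNA libraries overlapped and stood below the controls.

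The large lists of protein synthesis and energy metabolism held few calls. Of 78 cytosolic ribosomal proteins none passed, with a median of 0.03 in NaCr embryos over control embryos and of -0.87 in siRNA embryos over the same controls. Summed levels were 77825 and 83805 CPM in the NaCr libraries, 32053 and 51427 CPM in the siRNA libraries and 77395 and 77077.5 CPM in the controls. None of 78 mitochondrial ribosomal proteins, 72 genes of the respiratory chain and ATP synthase, 17 of the tricarboxylic acid cycle, 7 of the pentose phosphate pathway, 42 proteasome genes or 41 DNA replication genes passed. Their medians lay between -0.14 and 0.26. Rplp0, the most abundant cytosolic ribosomal protein gene, had a change of -0.03 ± 0.16, whose sign turned under other scalings.

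Ribosome biogenesis held 2 falls and no rise among 70 genes, which is 2.86% called against 1.57% of all genes. Of the 70, 62 had a negative change (median -0.35), against 8845 of all 16603 genes. Wdr12, a factor for the large subunit, read 205 and 189 CPM in NaCr embryos, 115 and 111 CPM in siRNA embryos and 372 and 402 CPM in control embryos (-0.97 ± 0.21, adjusted p = 0.0214), and Tsr1, a factor for the small subunit, fell by 1.04. Of 35 translation initiation genes, Eif4e, which binds the mRNA cap, rose with 2992 and 3379 CPM in NaCr embryos, 2358 and 2005 CPM in siRNA embryos and 1894 and 1945 CPM in control embryos (0.73 ± 0.16, adjusted p = 0.0226). Eif4b, a helper of the helicase that unwinds leader sequences, fell by 0.73 with an adjusted p of 0.0332.

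Remaining lists held 4 calls at most. Among 22 tetraspanins, Cd81 and Tspan31 rose and Tspan8 and Tspan1 fell. Among 12 aquaporins and subunits of the sodium-potassium ATPase, Aqp11 and Atp1b2 rose, the second with 10.2 and 17.9 CPM in NaCr embryos and 1.59 and 1.77 CPM in control embryos (3.05 ± 0.57, adjusted p = 0.0101). Among 23 interferon and innate sensing genes, 2 rose. Irf1, an interferon-induced transcription factor, read 4.03 and 0.995 CPM in NaCr embryos, 14.9 and 21.2 CPM in siRNA embryos and 0.513 and 0.110 CPM in control embryos, and its change of 3.02 was 1.62 without NaCr replicate 1 and 4.46 without control replicate 1. Sting1, a sensor of cytosolic nucleotides, read 5.22 and 1.37 CPM in NaCr embryos against 0 and 0.0552 CPM in control embryos, a ratio of 146 with a counting interval of 25.5 to 5829. Its change of 6.54 was 5.25 without NaCr replicate 1, 7.19 without NaCr replicate 2, 5.70 without control replicate 1 and 8.47 without control replicate 2.

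Single rises were also seen for Pttg1, the securin of sister chromatids, among 29 mitosis genes (1.27 ± 0.28) and for Ctsb, a lysosomal protease, among 33 autophagy genes (0.74 ± 0.18). None passed among 22 Hippo genes, 36 polarity and adhesion genes, 18 JAK and STAT genes, 24 amino acid transporters, 42 maternal oocyte transcripts or 7 sex-linked transcripts, whose medians were -0.27, -0.31, -0.13, -0.19, 0.11 and 0.56. The maternal list had a median of 1.001 in siRNA embryos over the same control embryos.

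Genes that the siRNA changed at an earlier stage gave lists from libraries outside this comparison, though inside the same fit. All groups share the estimate of each gene's spread, so genes called at an earlier stage may pass more easily here. The share over all genes is therefore not an even reference for these lists. At the early 8-cell stage, siRNA against control embryos gave calls for 16.5% of genes, of which 1198 were higher by at least 1 on the log2 scale. Of these, 73 were higher and none lower in NaCr embryos at the late 8-cell stage, which is 6.09% of that list and 41.0% of the 178 higher calls. Over all genes tested, 1.07% were called higher. The list's median in NaCr over control embryos was 0.37, and 67.1% of it (804 genes) was positive, against a median of -0.05 and 7295 positive of all 16603 genes. Of 973 genes lower at the early 8-cell stage, 35 were lower and 2 higher in late 8-cell NaCr embryos, which is 3.60% of that list, against 0.5% of all genes, and 42.2% of the 83 lower calls, with a median of -0.35.

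At the 4-cell stage 15% of genes were called between siRNA and control embryos. Lists made in the same way from it gave 70 of 1122 higher genes called higher and none lower (39.3% of the higher calls), and 33 of 837 lower genes called lower and 6 higher (39.8% of the lower calls). Between control early 8-cell and control 4-cell embryos 1.13% of genes were called. Of 101 genes higher in control early 8-cell than in control 4-cell embryos, 5 were called higher (4.95%, beside 6.09% of the early 8-cell siRNA list). Of 82 genes lower, 2 were called higher (2.44%) and 1 lower (1.22%). The medians of these control lists were 0.06 and 0. With 1 library left out the 73 became 29 and 31 (NaCr replicate 1 and 2) and 3 and 12 (control replicate 1 and 2), and the 35 became 9, 3, 1 and 3 in the same order. The 70 became 28, 29, 1 and 10 and the 33 became 7, 2, 1 and 3. The early 8-cell medians stayed between 0.31 and 0.45 for the higher list and between -0.38 and -0.30 for the lower list. These are counts, and no test was made of the difference between lists.

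The list with the highest median was 2-cell genome activation, and none of its 23 tested genes passed. Its median change was 2.65, but it became -0.07 without NaCr replicate 2. All 23 genes were higher in NaCr replicate 2 than in NaCr replicate 1, and their summed level was 339 and 835 CPM in the NaCr libraries, 715 and 444 CPM in the siRNA libraries and 392 and 354 CPM in the control libraries. These genes mark the burst of transcription at the 2-cell stage and the rare cells that return to such a state.

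The 5 Zscan4 genes, which act at telomeres in that state, summed to 0.396 and 24.4 CPM in NaCr embryos, 31.3 and 0.286 CPM in siRNA embryos and 0.359 and 0.717 CPM in control embryos. In each treated group 1 library was high and the other was at the control level. The 5 Usp17l genes, which encode ubiquitin proteases, summed to 27.9 and 238 CPM in NaCr embryos, 58.9 and 106 CPM in siRNA embryos and 3.29 and 5.18 CPM in control embryos, without overlap with the controls. Usp17lb, the most abundant of them, read 21.98 and 219 CPM in NaCr embryos against 2.46 and 3.64 CPM in control embryos, and its change of 5.29 ± 1.54 did not pass (adjusted p = 0.0969). Members of these families are near-identical copies, so reads of single genes are uncertain.

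**Figure D5:**
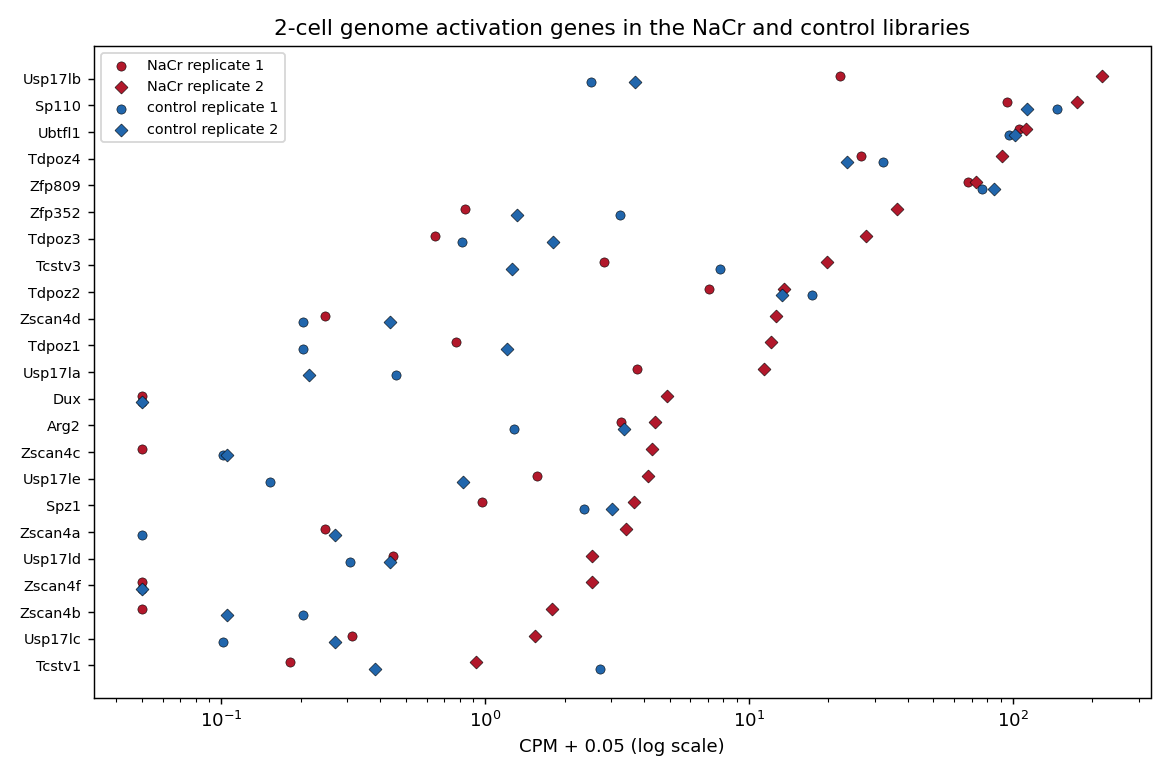
Levels of the 23 tested 2-cell genome activation genes in each NaCr and control library, in CPM plus a small constant on a log axis. For every gene NaCr replicate 2 (red diamond) lies to the right of NaCr replicate 1 (red circle), by more than 10-fold for several genes.

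Markers of other cells were low apart from a few genes. Of 14 cumulus and granulosa markers 8 were tested and 2 rose. Cyp11a1, a steroid-synthesis enzyme, read 4.36 and 1.62 CPM in NaCr embryos, 0.531 and 0.899 CPM in siRNA embryos and no count in control embryos, and was at least 42.7-fold higher with 3 counts over the control group as the floor. Amhr2, the receptor of anti-Müllerian hormone, read 47.0 and 70.5 CPM in NaCr embryos, 20.4 and 27.4 CPM in siRNA embryos and 30.5 and 22.3 CPM in control embryos (1.15 ± 0.26, adjusted p = 0.0329). Summed over the list, levels were 54.1 and 74.2 CPM in NaCr libraries, 31.3 and 44.2 CPM in siRNA libraries and 31.9 and 23.6 CPM in control libraries. Amhr2 made up most of each sum. The list median was 2.64, with 6 positive and 1 negative change. Tnfaip6, Nr5a1 and Ptx3 had 8, 6 and 4 counts over the NaCr libraries and none over the control libraries, Cyp19a1 had none and 1, and Has2 had none in either group. Without NaCr replicate 1 the change of Cyp11a1 was 7.44 against 8.35 with all libraries.

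Of 13 blood markers 3 were tested and 1 rose, the lysosomal protein Cd68 (30.4 and 35.9 CPM in NaCr embryos, 7.39 and 6.89 CPM in control embryos), with a list median of 1.31. Summed over the list, levels were 30.7 and 37.2 CPM in NaCr libraries, 47.0 and 49.1 CPM in siRNA libraries and 8.16 and 7.00 CPM in control libraries. Alas2 had 14 counts over the NaCr and 11 over the control libraries, and Lyz2 had none and 6. Stromal markers summed to at most 1.5996 CPM and sperm markers to at most 0.770 CPM in any NaCr or control library, and none passed. The part of other cells in the differences above was not tested.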

How the data were processed

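RNA was sequenced from preimplantation mouse embryos by Smart-seq2, per the labels' protocols. Raw read counts per gene were deposited by the authors as one table of 25208 genes, and FPKM values (fragments scaled to transcript length and library size) were deposited by the authors beside them. Per the submitters' processing notes, the tools included HISAT2 2.2.1, Cufflinks 2.2, cutadapt 4.1 and bcl2fastq 2.20.0.422, and the build was mm9; the notes used here give no order or role. The counter, the annotation and the use of strand are not given in the sources used here.

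The counts of all 20 libraries (10 groups of 2) were fitted together with edgeR 4.0.16 in R 4.3.3, so that all groups share one estimate of the spread. Genes were kept by filterByExpr (16603), libraries were scaled by TMM, and NaCr was tested against control by quasi-likelihood F tests, two-sided (10 residual degrees of freedom) and Benjamini-Hochberg adjustment over all genes, with calls at an adjusted p under 0.05. Total counts ranged between 3202332 and 24785201 per library over the series, and 1 count was worth between 0.0513 and 0.124 CPM in the 4 compared libraries. The SE is the fold change divided by the root of F. Folds against groups with no count use a floor of 3 counts over the group. Intervals are 95% exact counting intervals. The fit was tested on simulated counts.

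Named genes are Ep300, the 12 largest rises and 12 largest falls among called genes with at least 10 CPM in the higher group (unnamed gene models left out), up to 4 called members of each of 46 gene lists with the lowest adjusted p, and the most abundant member of a list without calls. The members, lists and rules were chosen with earlier results of these data known. Of 1329 list genes, 1323 matched by symbol, 2 by synonym and 4 not at all.

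Alternatives were DESeq2 1.42.0 (size factors and the Wald test), no filter, limma 3.58.1 on log2(FPKM + 1) and log2(FPKM + 0.1) with at least 1 FPKM in 2 libraries, a minimum change of 1, fewer libraries in the fit, a replicate block and leaving out each library. Same-numbered NaCr and control libraries deviated with a correlation of -0.106 over 8230 genes, so replicate numbers were not taken to pair libraries. Over all 45 pairs of groups this correlation lay between -0.157 and 0.464, and 6 pairs were over 0.1. Figures were drawn with matplotlib 3.10.9.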

Additional observations from a re-analysis of the deposited data

How the results depend on the processing

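All 261 called genes kept their direction under every alternative that tested them, which their lack of overlap made all but certain. The number of calls moved. NaCr embryos had 493 higher and 230 lower calls with DESeq2's Wald test, 513 and 280 without a filter on low counts, 97 and 50 with limma on log2(FPKM + 1), 80 and 21 on log2(FPKM + 0.1), 26 and 2 with a minimum change of 1, 1431 and 1080 with only the 4 libraries compared and 742 and 359 with only the 8 late 8-cell libraries. Leaving out 1 library gave between 9 and 95 higher and between 3 and 18 lower calls. The cause of these differences was not tested. Of the calls, 79.2% were higher with log2(FPKM + 0.1), against 68.2% with all libraries and edgeR. DESeq2's size factors gave 215 and 69 calls and gave a median over all genes of 0, against -0.05. The replicate block gave 268 calls (179 higher, 89 lower) and, of the named genes, lost Dynap, Klf17, Sqle, Meg3 and Nppb. With the replicate numbers of NaCr crossed, chosen after seeing the correlation, it gave 238.

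Changes of sign among named genes were limited to genes that did not pass. Rplp0 was 0.030 with DESeq2's size factors and with its Wald test, 0.042 with only the 4 and 0.038 with only the 8 libraries, and between -0.12 and 0.055 with 1 library left out. Sp110 was -0.011 with the replicate block. With 1 library left out, Sp110 lay between -0.45 and 0.42, Tead4 between -0.29 and 0.047, Psat1 between -0.036 and 0.077, Prm2 between -0.76 and 0.31, Zscan4d between -0.41 and 5.51, Zfp352 between -1.49 and 4.01 and Ddx3y between -0.37 and 0.77. The cause was not tested. With 2 libraries a group, and 9291934 counts in the shallower NaCr library, changes of genes under 1 CPM rest on few counts.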

Other observations

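The genes in this section were chosen after their values were seen. The iron storage genes Ftl1 and Fth1, the ferritin light and heavy chains, both rose. Ftl1 read 3184 and 2687 CPM in NaCr embryos, 3029 and 2549.8 CPM in siRNA embryos and 1465 and 1610.2 CPM in control embryos (0.93 ± 0.17, adjusted p = 0.0071). Fth1 rose by 0.87 ± 0.20 (adjusted p = 0.0372). Gpx2, a glutathione peroxidase, read 98.2 and 101 CPM in NaCr embryos, 118 and 99.0 CPM in siRNA embryos and 17.2 and 28.0 CPM in control embryos (2.14 ± 0.45, adjusted p = 0.0203), so its NaCr and siRNA libraries stood together above the controls.

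Nppb, which encodes the natriuretic peptide BNP, was higher in NaCr embryos than in siRNA and control embryos. In I1394G embryos, not tested against NaCr embryos, Nppb read 351 and 303 CPM. Nppb read 341 and 474 CPM in NaCr embryos, 17.0 and 66.9 CPM in siRNA embryos and 87.1 and 90.3 CPM in control embryos. The change was 2.199 ± 0.53 over control embryos (adjusted p = 0.0446) and 3.23 ± 0.56 over siRNA embryos (adjusted p = 0.00102).

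Fbp2 and Pygl, enzymes of glucose and glycogen metabolism, fell. Fbp2, a fructose bisphosphatase of gluconeogenesis, read 562 and 412 CPM in NaCr embryos, 70.4 and 123 CPM in siRNA embryos and 1187 and 1456 CPM in control embryos. It lay below the control level (-1.44 ± 0.34, adjusted p = 0.0372) and above the siRNA level (2.32 ± 0.35, adjusted p = 0.000443). Pygl, a phosphorylase that breaks down glycogen, read 1.45 and 1.12 CPM in NaCr embryos and 10.99 and 7.00 CPM in control embryos (-2.78 ± 0.60, adjusted p = 0.0223).

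X-linked genes were called higher in 15 of 682 tested cases (2.199%) and lower in 2 (0.293%), against 163 (1.03%) and 81 (0.512%) of 15814 autosomal genes. The medians were 0.02 for X-linked and -0.06 for autosomal genes, and no test was made of the difference. Among them Pdk3, a kinase that inhibits pyruvate dehydrogenase, read 24.2 and 16.8 CPM in NaCr embryos, 74.9 and 76.4 CPM in siRNA embryos and 8.01 and 9.71 CPM in control embryos (1.22 ± 0.25, adjusted p = 0.0182). Xist, the RNA that coats the inactive X chromosome, read 93.1 and 127 CPM in NaCr embryos and 276 and 139.9 CPM in control embryos and did not pass (adjusted p = 0.743). The sex of the embryos in each library is not given by the labels used here. Y-linked Eif2s3y read 115 and 93.6 CPM in NaCr embryos and 45.0 and 97.0 CPM in control embryos. Ddx3y, also Y-linked, read 59.5 and 46.1 CPM in NaCr embryos and 30.9 and 68.4 CPM in control embryos. Both overlapped between the groups. In siRNA embryos over the same control embryos, the median was 0.68 for X-linked and 0.04 for autosomal genes. The part of sex in the X-linked calls was not tested.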
